A study of Mus musculus with 12 samples.

Results

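The immediate early genes Fos, Fosb, Jun, Junb, Egr1, Atf3, Ier2, Ier3, Dusp1 and Zfp36 were followed through 12 RNA libraries of peeled mouse urothelium. They were taken as a list of symbols, by a rule that sets no threshold on their values, and all 10 were found among the 23337 gene symbols of both count tables. The question put to them was how their levels varied between libraries and between genotypes. The libraries came from Stag2-WT and Stag2-KO mice, 3 libraries of each genotype at 1 week and 3 of each at 1 month. STAG2 belongs to cohesin, which encircles DNA to tether sister chromatids and to form chromatin loops. Every mouse, wild type included, had been fed a diet containing TMX, and the times are counted from the start of that week-long treatment. The driver of the deletion, the strain, the age and the sex of the mice are not given in the sources used here.

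Immediate early genes are switched on within minutes of a growth factor, a mechanical stimulus or a stress, by transcription factors that are already present in the cell. Their mRNAs are short-lived. In tissues that are cut, peeled or digested before RNA is extracted, the same genes are known to be induced by the handling itself, so their level in a library also records how that tissue was treated. FOS, FOSB, JUN and JUNB are subunits of the dimeric transcription factor AP-1, EGR1 is a zinc finger factor, and ATF3 is a stress-induced factor of the ATF family. IER3 is a regulator of cell survival, and IER2 is a nuclear protein. DUSP1 and ZFP36 close the response: DUSP1 is a phosphatase that turns off MAP kinases, and ZFP36 speeds the decay of AU-rich mRNAs.

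Read totals ran from 5580961 to 9497088 counts per library, so 3 counts correspond to between 0.305 and 0.632 CPM, the count scaled to the size of the library. The targeted gene, Stag2, was lower in KO without overlap at both times, at 59.5 to 72.2 CPM against 106 to 151 CPM at 1 week and 19.3 to 39.4 CPM against 45.1 to 64.6 CPM at 1 month. Its log2 fold change was -0.89 (SE 0.27, adjusted p = 0.198) at 1 week and -0.88 (SE 0.22, adjusted p = 0.0507) at 1 month. The part of the gene that was deleted is not given, and a 3′ tag outside it would not report the deletion. KO replicate 3 at 1 week stood apart: its Spearman correlation with the other 1 week libraries over 13122 genes was 0.746 to 0.842, and Upk3a, a uroplakin of umbrella cells, was at 163 CPM there against at least 1260 CPM in the other 11 libraries. In that library the other uroplakin genes did not all follow: Upk1a (6393 CPM) and Upk3b (183 CPM) were the highest of the 1 week libraries. Upk1b (136 CPM) was the lowest of them, and Upk2 (1057 CPM) lay inside the WT range. Fold changes of genes named at 1 week are therefore given with and without KO replicate 3. Xist, the RNA of the inactive X chromosome, was at 1120 to 1307 CPM in the 3 KO libraries of 1 week and at most 1.32 CPM in the 3 WT libraries, so genotype and sex cannot be told apart at 1 week. At 1 month Xist was at 1178 CPM in KO replicate 3 and at most 3.58 CPM in the other 5 libraries. Within batch 3, which holds replicate 3 of both genotypes, genotype and sex therefore cannot be told apart either. Dbp, a gene of the circadian clock, also differed without overlap at 1 week, at 51.5 to 102 CPM in WT and 6.33 to 9.04 CPM in KO. At 1 month it overlapped, at 20.8 to 75.4 CPM in WT and 18.6 to 47.0 CPM in KO. Whether the time of day at collection differed between genotypes was not tested. All 15 urothelial markers were detected in every library.

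The sequences upstream of Fos, Jun, Junb and Dusp1 are shown because these genes turned out to form the pairs Fos with Jun and Junb with Dusp1 that varied together across libraries. Each is the 250 bases before the transcription start in RefSeq (GRCm38.p6), written 5′ to 3′ on the strand of the gene. The windows are chr12:85473640-85473889 (Fos, plus strand), chr4:95052223-95052472 (Jun, minus strand), chr8:84978749-84978998 (Junb, minus strand) and chr17:26508473-26508722 (Dusp1, minus strand). Capitals mark matches, on either strand, to TGACG (the core of the site bound by CREB and ATF factors), TGACGTCA (the whole CREB site), TGACTCA (the AP-1 site), TATAAA, the MEF2 motif or the CArG box of serum response factor.
Fos: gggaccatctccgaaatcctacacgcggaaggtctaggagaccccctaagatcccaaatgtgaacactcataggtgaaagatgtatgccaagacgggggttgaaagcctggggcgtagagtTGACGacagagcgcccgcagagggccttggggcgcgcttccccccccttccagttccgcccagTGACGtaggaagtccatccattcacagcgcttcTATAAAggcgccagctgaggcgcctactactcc
Jun: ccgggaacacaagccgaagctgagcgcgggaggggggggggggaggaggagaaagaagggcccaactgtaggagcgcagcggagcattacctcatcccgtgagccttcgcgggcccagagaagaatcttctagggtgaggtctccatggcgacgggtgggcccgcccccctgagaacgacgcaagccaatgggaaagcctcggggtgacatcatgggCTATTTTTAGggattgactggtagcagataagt
Junb: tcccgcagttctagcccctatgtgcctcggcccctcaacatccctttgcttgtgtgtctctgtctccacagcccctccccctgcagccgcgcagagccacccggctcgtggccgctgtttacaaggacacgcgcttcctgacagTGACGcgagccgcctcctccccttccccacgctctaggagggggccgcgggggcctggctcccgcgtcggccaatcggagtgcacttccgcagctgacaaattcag
Dusp1: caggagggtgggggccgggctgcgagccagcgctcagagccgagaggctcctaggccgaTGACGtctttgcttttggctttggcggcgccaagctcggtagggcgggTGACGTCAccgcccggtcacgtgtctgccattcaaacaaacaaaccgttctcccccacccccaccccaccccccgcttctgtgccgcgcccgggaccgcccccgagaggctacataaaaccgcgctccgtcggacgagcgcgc

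The core TGACG was found in the windows of Fos, Junb and Dusp1, and also in those of Fosb and Atf3. That is 5 of the 8 members with a window in the table, against 17.8% of all 32851 windows. The 8 windows were richer in G and C, at 54.4% to 68.8%, than the median window at 52.4%, and the shares are not adjusted for this. In Fos the core lay at 129 and at 66 bases before the start, with TATAAA at 33 bases. The whole site TGACGTCA, which contains the core on both strands, was found only in Dusp1 among the 8, at 143 bases before the start, and in 1.55% of all windows. Jun held no TGACG but a MEF2 match at 33 bases. MEF2 matches were in 0.508% of all windows and, among the members, in Jun and Atf3. The CArG box was found in Zfp36 and in 1.47% of all windows, GCGGGGGCG, an EGR site, in Fosb and Zfp36 and in 2.57%, and TGACTCA in none of the 8 and in 4.46%. Egr1 and Ier2 had no window, so they were not searched. Sequence farther upstream than the windows was not searched either, so a site there would be missed. Near matches, such as the letters TGACATCA in the Jun window, were not counted. A match is a description of the letters and not evidence of binding.

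At 1 week, most of the stimulus-induced transcription factors had higher means in KO, with Egr1 the farthest from WT, but none of the 10 members passed the test. Here 0 of 10 were called by edgeR's quasi-likelihood test at an adjusted p under 0.05, where 0.0627% of all 12754 genes were called. The unadjusted p was under 0.05 for Fosb, Jun, Egr1 and Atf3, 4 of 10, against 15.5% of all genes, and DESeq2 called Fosb, Egr1 and Atf3, where it called 7.5% of all genes. The fold change was positive for 8 of 10, with a median log2 value of 1.07 against 0.02 over all genes. CPM were higher in KO without overlap for Fosb, Egr1 and Atf3, and 13.2% of all genes were higher in that way. Without KO replicate 3 the median over the members was 0.23, and 0 of 10 were called, where 2.45% of 13059 genes were.

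**Figure D1:**
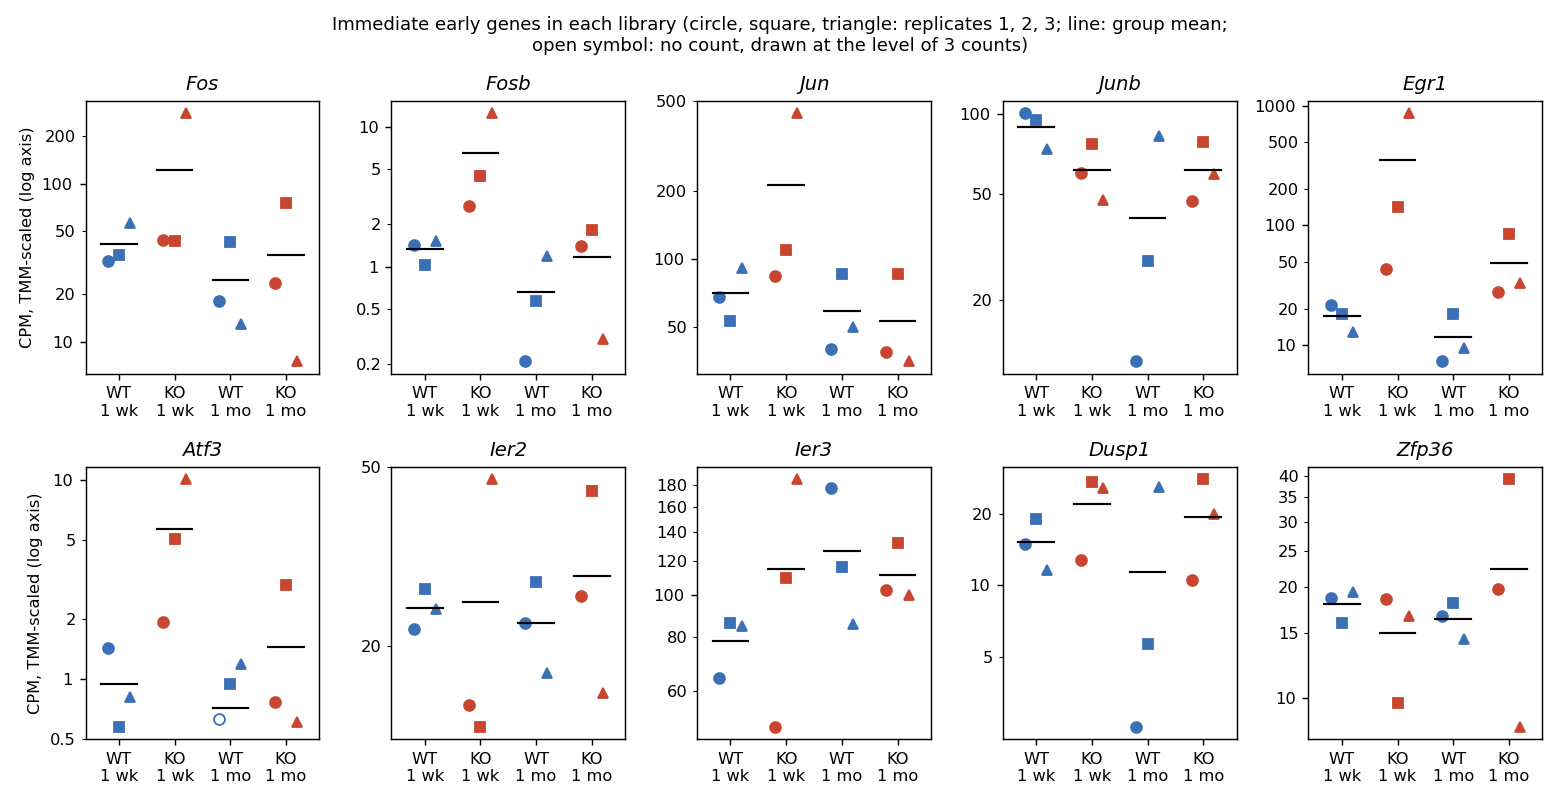
Level of each gene in each of the 12 libraries, as TMM-scaled CPM on a log axis, for WT (blue) and KO (red) at 1 week and 1 month. Symbols are replicates 1 (circle), 2 (square) and 3 (triangle), lines are group means, and the open symbol is a library with no count drawn at the level of 3 counts. KO replicate 3 at 1 week reached 865 CPM for Egr1 and 442 CPM for Jun.

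Among the AP-1 subunits at 1 week, Fos was at 32.5, 35.6 and 56.5 CPM in WT replicates 1 to 3 and at 44.4, 43.6 and 278 CPM in KO replicates 1 to 3. Both of the first KO libraries lay within the WT range, and the third was 6.38 times the lowest of its group. The log2 fold change of Fos was 1.57 (SE 0.75, adjusted p = 0.369) with all libraries and 0.06 (SE 0.28) without KO replicate 3. Jun, the partner with which FOS forms the classical AP-1 dimer, was at 67.5, 52.8 and 91.0 CPM in WT and 83.6, 109.5 and 442 CPM in KO. Here too the groups overlapped. The log2 fold change of Jun was 1.61 (SE 0.65, adjusted p = 0.299), and 0.44 (SE 0.27) without KO replicate 3.

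Fosb, whose product is a close relative of FOS, was present at low counts: 12, 9 and 15 reads in WT and 21, 41 and 63 reads in KO at 1 week. These corresponded to 1.43, 1.03 and 1.52 CPM in WT and to 2.69, 4.41 and 12.5 CPM in KO, without overlap. The log2 fold change was 2.28 (SE 0.66, adjusted p = 0.182), and it was 1.40 (SE 0.48) without KO replicate 3. Junb went the other way in its values, from 101, 94.5 and 73.9 CPM in WT to 60.2, 77.0 and 47.7 CPM in KO, with 1 KO library inside the WT range. Its log2 fold change was -0.52 (SE 0.29, adjusted p = 0.429), and -0.40 (SE 0.23) without KO replicate 3. The library with the highest Fos, Fosb and Jun of the 12, KO replicate 3 at 1 week, therefore had the lowest Junb of the 6 libraries of that time.

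With all libraries, Egr1 spread the most at 1 week. It was at 21.6, 18.3 and 12.9 CPM in WT and at 43.0, 143 and 865 CPM in KO, which is 17.6 ± 4.41 CPM (SD, n = 3) against 350 ± 449 CPM (SD, n = 3). Every KO library was above every WT library, and within KO the highest was 20.1 times the lowest. The log2 fold change was 4.33 (SE 1.06), a size that 99.6% of tested genes did not reach, and the adjusted p was 0.139. Without KO replicate 3 it was 2.39 (SE 0.48, adjusted p = 0.0509), and over all alternatives the adjusted p ran from 1.48e-04 with DESeq2 to 0.511. The summed level of 5 endothelial markers (Pecam1, Cdh5, Kdr, Tek, Emcn) was also higher in KO without overlap at 1 week, at 145 to 168 CPM in WT and 240 to 432 CPM in KO, with none of the 5 at 0 in any library. Its genes did not go together: in KO replicate 3 Pecam1 (292 CPM) and Tek (72.8 CPM) were the highest of the 6 libraries, and Kdr (22.2 CPM) and Emcn (4.55 CPM) the lowest. The part of this in the Egr1 values was not tested, and in bulk tissue more cells of a type and more RNA per cell cannot be told apart.

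Atf3 was again a gene of few reads, with 12, 5 and 8 in WT and 15, 47 and 51 in KO at 1 week. Its CPM were 1.43, 0.573 and 0.812 in WT and 1.92, 5.06 and 10.1 in KO, without overlap. The log2 fold change was 2.59 (SE 0.72, adjusted p = 0.172), and 1.88 (SE 0.63) without KO replicate 3. Atf3, Fosb and Egr1 were thus the members whose difference at 1 week stayed above 1 on the log2 scale when that library was left out.

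The IER genes overlapped between genotypes. Ier2 was at 21.9, 26.8 and 24.3 CPM in WT and 14.9, 13.2 and 47.1 CPM in KO at 1 week, so that KO held both the lowest and the highest values. Its log2 fold change of 0.06 (SE 0.51, adjusted p = 0.968) turned to -0.81 (SE 0.23, adjusted p = 0.110) without KO replicate 3. Ier3 was at 64.3, 85.8 and 84.9 CPM in WT and 49.4, 109 and 185 CPM in KO, and its log2 fold change was 0.57 (SE 0.46, adjusted p = 0.571), or 0.00 without that library.

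The feedback genes overlapped between genotypes at 1 week. Dusp1 was at 14.9, 18.9 and 11.6 CPM in WT and 12.8, 27.1 and 25.7 CPM in KO (log2 fold change 0.55, SE 0.39, adjusted p = 0.515; 0.39 without KO replicate 3). Zfp36 was at 18.7, 15.9 and 19.4 CPM in WT and 18.6, 9.69 and 16.6 CPM in KO (-0.24, SE 0.35, adjusted p = 0.757; -0.38 without KO replicate 3). In KO replicate 3, where Egr1, Fos and Jun were at their highest, Zfp36 was inside the WT range.

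**Figure D2:**
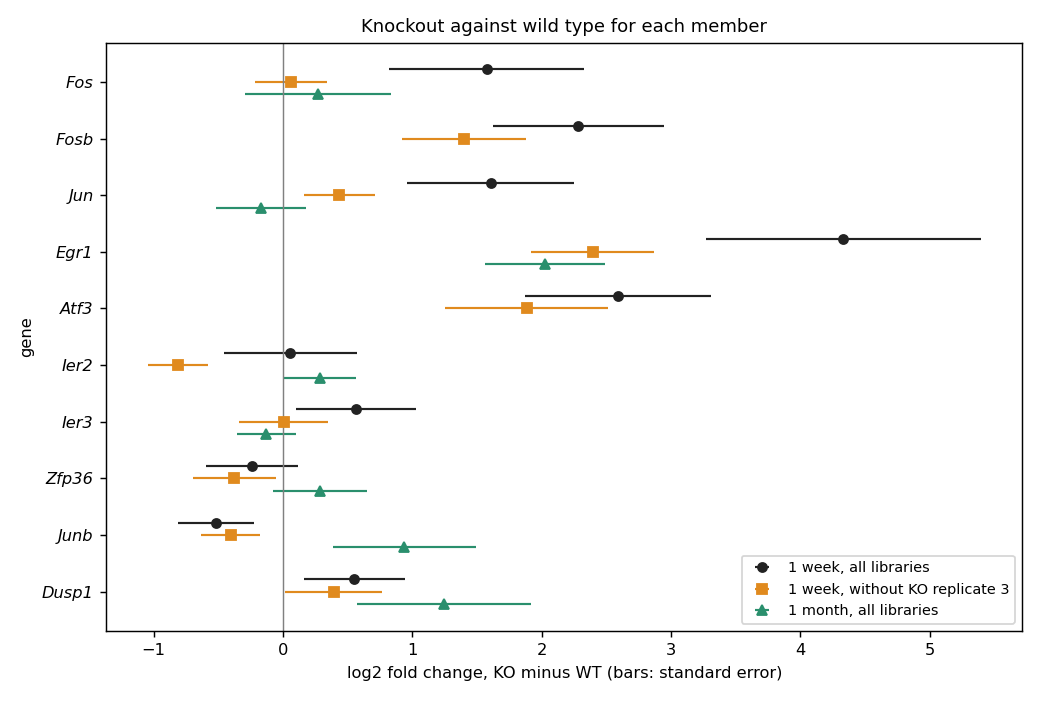
Log2 fold change of KO against WT for each gene, with the standard error as bars, at 1 week with all libraries (black circles), at 1 week without KO replicate 3 (orange squares) and at 1 month (green triangles). Egr1 lies above 0 by more than its standard error in all 3 fits, at 4.33, 2.39 and 2.02, whereas Fos moves from 1.57 to 0.06 when the library is left out. Fosb and Atf3 have no point at 1 month because their counts did not pass the filter.

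At 1 month the 6 libraries fall into batch 2 (replicates 1 and 2 of both genotypes) and batch 3 (replicate 3 of both), as the labels number them, and batch was a covariate. Egr1 again had its 3 KO libraries above its 3 WT libraries, and the other members overlapped. Of the 8 members that passed the filter on low counts, 0 were called, against 2.22% of 12139 genes. Only Egr1 of the 8 had an unadjusted p under 0.05, against 21.5% of all genes, and DESeq2 called Egr1 alone among them, where it called 6.43% of all genes. The fold change was positive for 6 of the 8 with a median log2 value of 0.29, where the median of all genes was -0.01. Egr1 was 1 of 8 without overlap and higher in KO, against 6.42% of all genes.

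Egr1 was at 7.37, 18.2 and 9.54 CPM in WT and at 27.9, 84.7 and 33.2 CPM in KO at 1 month, which is 11.7 ± 5.74 CPM (SD, n = 3) against 48.6 ± 31.4 CPM (SD, n = 3). The lowest KO library was above the highest WT library. Within batches the log2 difference was 2.04 in batch 2 and 1.77 in batch 3, where genotype and sex coincide. The fit gave 2.02 (SE 0.46, adjusted p = 0.0600). That p lay on either side of 0.05 depending on the setting: over all alternatives it ran from 6.32e-11 with no filter on low counts to 0.385 with no batch covariate. It was 0.0368 without the robust option, 0.0498 with scaling factors from all 12 libraries, 1.03e-04 with DESeq2, 0.0216 without KO replicate 1 and 0.124 without KO replicate 2. The fold change kept its sign throughout, at 1.41 to 2.41 on the log2 scale. The 5 endothelial markers summed to 124 to 174 CPM in WT and 187 to 323 CPM in KO at this time, again without overlap. Of these 5 genes only 2, Pecam1 and Kdr, were higher in KO without overlap. Tek was at 16.1 to 28.6 CPM in WT and 14.3 to 23.4 CPM in KO. The part of these markers in the Egr1 values was not tested.

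Fos and Jun were widely spread at 1 month within both genotypes. Fos was at 18.3, 43.0 and 13.0 CPM in WT and 23.5, 76.0 and 7.59 CPM in KO, so that KO held the lowest and the highest library. Its log2 fold change was 0.27 (SE 0.57, adjusted p = 0.816), and it turned to -0.54 without KO replicate 2. Jun was at 40.0, 85.5 and 50.1 CPM in WT and 38.6, 85.5 and 35.2 CPM in KO (-0.17, SE 0.35, adjusted p = 0.806). In both genotypes replicate 2 had the most Fos and the most Jun.

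Junb and Dusp1 shared a pattern at 1 month. Junb was at 11.8, 28.0 and 82.4 CPM in WT and 47.1, 78.8 and 59.3 CPM in KO. Dusp1 was at 2.53, 5.63 and 25.9 CPM in WT and 10.5, 28.0 and 19.9 CPM in KO. The WT libraries of batch 2 were low for both genes and the WT library of batch 3 was as high as KO. The log2 fold changes were 0.94 (SE 0.56, adjusted p = 0.379) for Junb and 1.25 (SE 0.67, adjusted p = 0.333) for Dusp1. Within batch 2 the log2 difference was 1.73 for Junb and 2.10 for Dusp1, and within batch 3 it was -0.47 and -0.38. With batch 2 alone, 2 libraries against 2, both were called, at 1.68 (adjusted p = 0.0176) and 2.24 (adjusted p = 0.0144), and over all alternatives the adjusted p ran from 0.0171 to 0.785 for Junb and from 0.0127 to 0.782 for Dusp1. Batch 3 holds 1 library of each genotype, so its difference has no replicate check, and genotype and sex coincide in it. WT replicate 3 also had the most smooth muscle RNA of the 1 month libraries, 895 CPM over 5 markers against 93.1 to 421 CPM in the other 5. None of these markers was at 0, and their part in the Junb and Dusp1 values was not tested.

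The remaining members overlapped at 1 month. Ier2 was at 22.5, 27.8 and 17.4 CPM in WT and 25.8, 44.3 and 15.8 CPM in KO (log2 fold change 0.29, SE 0.28, adjusted p = 0.571). Ier3 was at 176, 116 and 85.7 CPM in WT and 102, 132 and 99.98 CPM in KO (-0.13, SE 0.23, adjusted p = 0.774). Zfp36 was at 16.6, 18.0 and 14.5 CPM in WT and at 19.7, 39.2 and 8.34 CPM in KO (0.29, SE 0.37, adjusted p = 0.675). For Zfp36 the WT libraries were tight and the KO libraries spanned 4.69 times from lowest to highest. Fosb and Atf3 had too few reads for the filter, with 1, 3 and 8 reads of Fosb and 0, 5 and 8 reads of Atf3 in WT, and 11, 11 and 2 of Fosb and 6, 18 and 4 of Atf3 in KO. Fitted without a filter, their log2 fold changes were 0.75 (SE 0.91, adjusted p = 0.750) and 0.94 (SE 0.84, adjusted p = 0.641).

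No member's KO effect was shown to differ between the times. The interaction, 1 month minus 1 week, was called for 0 of 10 members and for 0% of 13122 genes by edgeR. Its unadjusted p was under 0.05 for Junb alone among the members, against 19.9% of all genes, and DESeq2 called 0 members and 917 of all genes (6.99%). The estimate for Junb was 1.50 on the log2 scale (SE 0.65, adjusted p = 0.233), the largest positive value among them. Egr1 had the most negative, -2.29 (SE 1.19, adjusted p = 0.296), which became -0.39 (SE 0.75) without KO replicate 3 at 1 week. Fos (-1.31, SE 1.03) and Jun (-1.77, SE 0.82) became 0.18 and -0.64 without that library. Time and batch cannot be told apart, because all 1 week libraries are batch 1, so levels are not compared between the times.

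Libraries of one group differed widely in the members, and often in many of them at once. KO replicate 3 at 1 week had the highest value of its group for 7 of the 10 genes, and the 10 genes together summed to 1930 CPM there against 332 and 542 CPM in the other KO libraries of 1 week. KO replicate 2 at 1 month had the highest of its group for all 10, with a sum of 573 CPM against 298 and 280 CPM. KO replicate 3 at 1 month and WT replicate 1 at 1 month had the lowest of their groups for 7 and for 6 members, and KO replicate 1 at 1 week for 6. The 3 WT libraries of 1 week were close to each other, with sums of 345, 350 and 377 CPM. RNA quality scores are given only for the series, as an average of 9.0 with a range of 8.7 to 9.3, so they could not be set against single libraries.

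**Figure D3:**
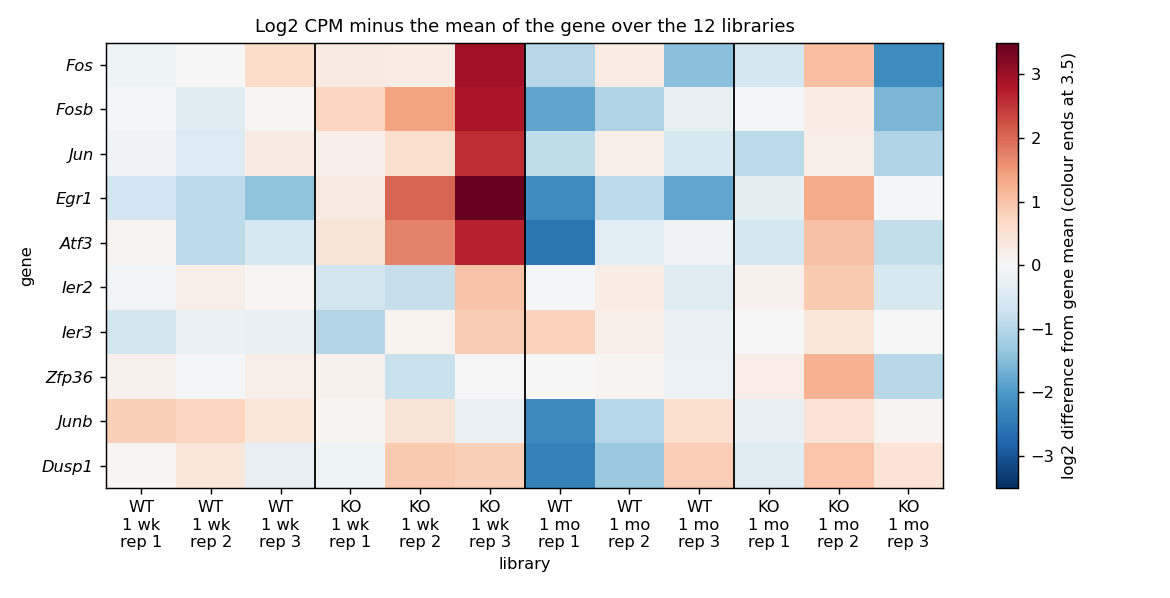
Log2 CPM of each gene (rows) in each library (columns) minus the mean of that gene over all 12 libraries, red for higher and blue for lower, with black lines between the groups. KO replicate 3 at 1 week is red for Fos, Fosb, Jun, Egr1 and Atf3 and near 0 for Junb and Zfp36, while Junb and Dusp1 are blue in WT replicates 1 and 2 at 1 month.

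To see which members moved together within groups, each was expressed as log2 CPM minus the mean of its genotype and time group, over 12 libraries. These correlations share libraries and library depth and are given as descriptions. Of the 45 pairs of members 38 were positive, with a median Pearson r of 0.585. Without the 2 libraries farthest from the median of the member mean (KO replicate 3 at 1 week and KO replicate 2 at 1 month) 32 were positive and the median was 0.336. Fos and Ier2 were the closest pair, at r = 0.955, and at 0.911 without those libraries. Fos and Jun were at 0.896 (0.777 without them), and Jun and Egr1 at 0.895 (0.729). Fosb and Atf3, the low-count members, were at 0.836 (0.761).

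Junb and Dusp1 were also close. Their r was 0.906, and 0.946 without the same 2 libraries. Atf3 went with both, at 0.703 with Dusp1 (0.702 without them) and 0.585 with Junb (0.729), and Fosb less closely, at 0.510 (0.480) and 0.362 (0.514). Junb had r values of -0.17 with Fos, -0.01 with Jun and 0.04 with Egr1. The lowest of all pairs was Junb with Ier3, at -0.47. Against the mean of the other 9 members, r was 0.889 for Jun, 0.872 for Atf3, 0.867 for Fosb, 0.833 for Egr1, 0.785 for Ier2 and 0.765 for Fos. It was 0.439 for Ier3, 0.439 for Zfp36, 0.400 for Dusp1 and 0.186 for Junb. Without the 2 farthest libraries it was 0.841 for Atf3, 0.788 for Fosb, 0.742 for Jun and 0.664 for Egr1. It was then 0.442 for Fos, 0.438 for Ier2, 0.0881 for Zfp36 and 0.00931 for Ier3, so these 4 values depend on those libraries. Some pairs of Fos stayed close: without the same 2 libraries it was at 0.911 with Ier2, 0.777 with Jun and 0.670 with Zfp36. Junb and Dusp1 were the members negative with Fos there, at -0.285 and -0.313. Fos and Egr1 were at 0.747 with all libraries and at 0.448 without those 2.

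**Figure D4:**
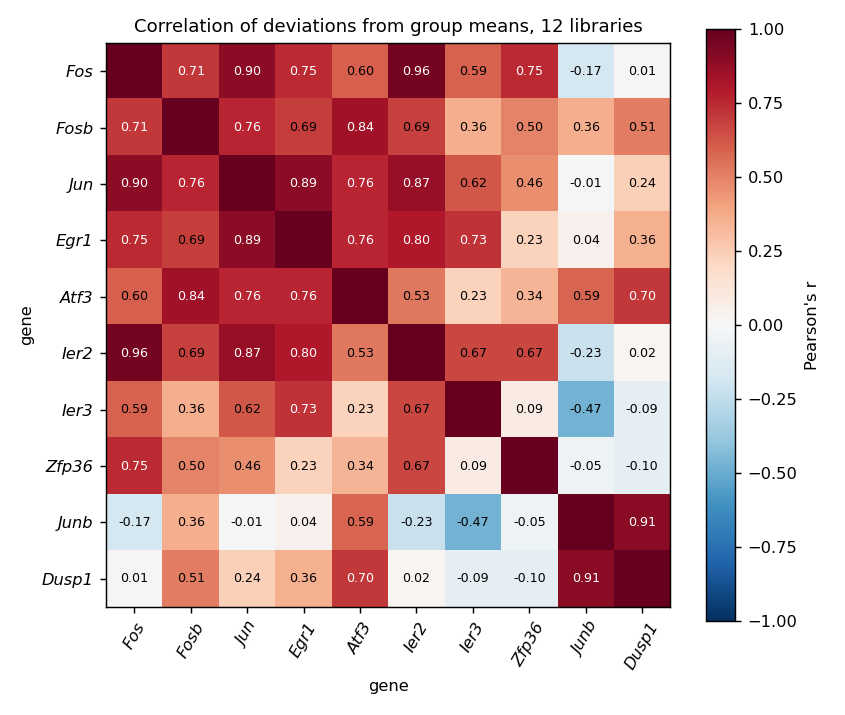
Pearson r between each pair of the 10 genes over 12 libraries, after subtracting the mean of each genotype and time group, with genes in the same order on both axes. Fos, Jun, Egr1 and Ier2 form a block of high values up to 0.955, and Junb is high with Dusp1 (0.906) and below 0 with Ier3 (-0.47).

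Over all groups together, all 10 members varied more between replicates than the median gene. Within 1 time alone, 7 did at 1 week and 9 at 1 month. The within-group standard deviation of log2 CPM had a median of 0.538 over 13122 genes. Egr1 (1.23) and Fos (1.22) exceeded 95.7% and 95.6% of these genes, and Atf3 (1.04) exceeded 91.2%. Dusp1 (0.958), Fosb (0.840), Jun (0.808) and Junb (0.749) followed, and Ier2 (0.647), Zfp36 (0.611) and Ier3 (0.568) were nearest to the median. Leaving out KO replicate 3 at 1 week lowered the median gene to 0.423, and all 10 were again above it. The order then differed, with Fos (1.02), Dusp1 (1.01) and Atf3 (0.991) first, Egr1 at 0.766 (percentile 87.4) and Jun at 0.533 (67.6), so the place of Egr1 and Jun rests on that library. Within the 1 week libraries Egr1 was at percentile 97.3, Junb at 18.7 and Dusp1 at 43.8, and within the 1 month libraries they were at 83.8, 93.0 and 96.8, with no test of the difference. Fosb and Atf3 have few reads, so counting error adds to their spread.

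**Figure D5:**
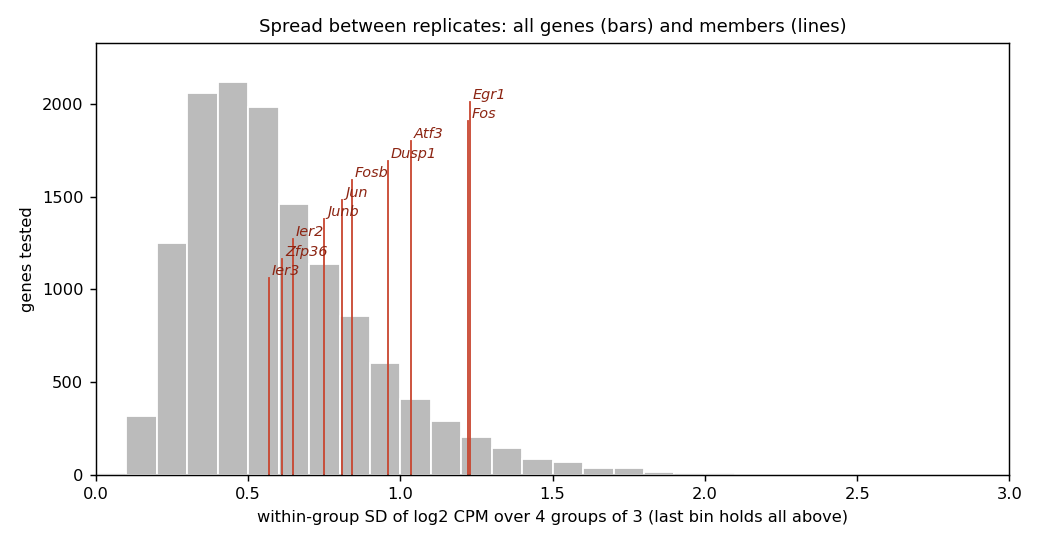
Within-group standard deviation of log2 CPM (x axis, 4 groups of 3 libraries) for all 13122 genes as a histogram of gene counts (y axis), with each of the 10 genes as a labelled line whose height has no meaning. All 10 lines lie to the right of the median of 0.538, from Ier3 at 0.568 to Egr1 at 1.23.

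Among the 13112 other genes, the 5 whose within-group deviations were most like the mean of the members over 12 libraries were Csnk2a1, Map3k6, sep-10, Gk5 and 1500009L16Rik. The r of Csnk2a1, a catalytic subunit of casein kinase 2, was 0.970, and 0.921 without the 2 farthest libraries. Map3k6, a MAP kinase kinase kinase, had 0.936 (0.886). The row sep-10, a symbol in the form of a date in the deposited table, had 0.932 (0.893). Gk5 and 1500009L16Rik each had 0.927 (0.838 and 0.837). Both had few reads, at most 4 of Gk5 and 17 of 1500009L16Rik in a 1 month library. Csnk2a1 varied over a small range beside the members, from 187 to 284 CPM in KO and 202 to 219 CPM in WT at 1 week. In all, 10 genes had an r above 0.9.

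The wider response was described with 7 lists of 82 genes in all. At 1 week 67 of them passed the filter and 0 were called, against 0.0627% of all genes, with 12 at an unadjusted p under 0.05 (15.5% of all genes) and 7 called by DESeq2 (7.5% of all genes). At 1 month 61 passed and 1 was called, Ier5, against 2.22% of all genes. The median log2 fold change was 0.26 at 1 week, with 40 higher and 27 lower in KO, and 0.10 at 1 month, with 37 higher and 24 lower.

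Ier5, a regulator of the heat shock response and itself an immediate early gene, was the 1 of 61 called at 1 month (2.22% of all genes). It was at 33.9, 43.6 and 97.7 CPM in WT and 69.1, 108 and 158 CPM in KO, overlapping, and the fit gave 1.03 on the log2 scale (SE 0.24, adjusted p = 0.0448). Within batches the log2 difference of Ier5 was 1.17 and 0.69. The call was lost without WT replicate 1 (0.179), WT replicate 2 (0.173), KO replicate 1 (0.0584) or KO replicate 2 (0.173), without the robust option (0.0511) and without the batch term (0.681). At 1 week Ier5 was at 77.1, 149 and 11.7 CPM in KO, lowest in the library where Egr1 and Fos were highest.

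Of the other AP-1 and bZIP genes, 0 of 8 tested were called at either time. Jund, the third JUN protein, was at 112, 91.3 and 140 CPM in WT and 211, 125 and 950 CPM in KO at 1 week, with the same high library as Jun (log2 fold change 1.93, SE 0.73, adjusted p = 0.279; 0.53 without KO replicate 3). Of the EGR, NR4A and KLF genes 0 of 5 were called at either time. Nr4a2, an orphan nuclear receptor, was higher in KO without overlap at 1 week (2.06, SE 0.63, adjusted p = 0.198), with 2.19 without KO replicate 3 and 1.17 without KO replicate 2. Klf4, an epithelial differentiation factor, had 1.32 (SE 0.56, adjusted p = 0.320) at 1 week, or 0.35 without KO replicate 3, which was at 1311 CPM, and -0.90 (SE 0.23, adjusted p = 0.0620) at 1 month, where the KO libraries at 213 to 266 CPM lay below the WT libraries at 363 to 575 CPM.

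Of the 14 SRF and growth response genes tested at 1 week 0 were called, 11 of them with positive values. Hbegf, an EGF receptor ligand, was at 7.61, 7.68 and 11.5 CPM in WT and 19.7, 27.5 and 64.5 CPM in KO (2.07, SE 0.50, adjusted p = 0.139; 1.38 without KO replicate 3). Gadd45a, a growth arrest and DNA damage gene, was lower in KO without overlap at 1 week, at 3.96 to 6.91 CPM against 22.7 to 31.7 CPM (-2.16, SE 0.36, adjusted p = 0.0927), and without KO replicate 3 it passed (-1.99, adjusted p = 0.0213). At 1 month 0 of 11 were called. Srf, the serum response factor itself, had 1.54 (SE 0.38, adjusted p = 0.0634), and Cyr61, a matricellular protein gene, 2.25 (SE 0.58, adjusted p = 0.0902). Both were low in WT replicates 1 and 2 and higher in WT replicate 3, as Junb and Dusp1 were: Srf was at 4.42, 8.64 and 71.2 CPM and Cyr61 at 2.95, 7.70 and 22.2 CPM.

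The heat shock genes of the dissociation response had 0 of 11 called at either time. At 1 week 10 of 11 were positive, and 6 were higher in KO without overlap, where 13.2% of all genes were. The HSP70 genes Hspa1a and Hspa1b were not among these 6. Hspa1a was at 16.2 to 21.4 CPM in WT and 2.37 to 25.6 CPM in KO, lowest in KO replicate 3. Hspa1b was at 11.5 to 29.9 CPM in WT and 6.40 to 54.7 CPM in KO. The chaperone gene Hsph1 was at 24.4 to 29.1 CPM in WT and 39.2 to 69.3 CPM in KO (1.02, SE 0.30, adjusted p = 0.189), and passed without KO replicate 3 (1.17, adjusted p = 0.0403). The median of the list was 0.49 at 1 week and -0.09 at 1 month. At 1 month Hspa1b, an inducible HSP70, was at 1.26, 1.88 and 16.7 CPM in WT and 11.5, 13.3 and 17.4 CPM in KO (1.73, SE 0.55, adjusted p = 0.111), again with WT replicates 1 and 2 low.

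Feedback and decay genes had 0 of 15 called at 1 week, where Zfp36l2, a relative of Zfp36, had -0.98 (SE 0.28, adjusted p = 0.178; -0.87 without KO replicate 3), and 1 of 13 at 1 month, Ier5. The NF-kB feedback and cytokine genes had 0 of 4 and 0 of 3 called, with the NF-kB inhibitor gene Nfkbia at -0.51 (SE 0.64) at 1 week, -0.08 without KO replicate 3, and 0.82 (SE 0.35, adjusted p = 0.202) at 1 month. Of the glucocorticoid response genes 0 of 10 were called at either time. Zbtb16, a zinc finger factor induced by glucocorticoids, was higher in KO without overlap at 1 week, at 8.83 to 71.2 CPM against 4.40 to 5.38 CPM (3.12, SE 0.71, adjusted p = 0.130; 2.44 without KO replicate 3), and Klf9 had 0.92 (SE 0.32, adjusted p = 0.132) at 1 month.

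Markers of several other cell types were higher in KO at 1 week. Smooth muscle markers (5 of 5 detected, none at 0) summed to 107 to 269 CPM in WT and 330 to 1023 CPM in KO, and nerve markers (3 of 3) to 6.40 to 8.80 and 15.6 to 42.5 CPM. Leukocyte markers (7 of 8 in the tables, at most 1 of these at 0 in a library) summed to 73.2 to 127 CPM in WT and 178 to 443 CPM in KO. KO replicate 3, the library with the most Fos, Jun and Egr1, had the highest sums of endothelial, leukocyte and nerve markers of the 6, but less smooth muscle marker RNA than KO replicate 2 (911 against 1023 CPM) and the least fibroblast marker RNA of the KO libraries (5142 CPM). At 1 month leukocyte markers went the other way, 322 to 796 CPM in WT and 204 to 226 CPM in KO, while Egr1 was higher in KO. Fibroblast markers summed to 3521 to 5727 CPM in WT and 5142 to 10240 CPM in KO at 1 week and to 9686 to 14396 and 8065 to 9913 CPM at 1 month, so fibroblast RNA was present in every library. The haemoglobin genes Hba-a1 and Hba-a2 had no count in any library. What part these cells have in the levels of the members was not tested.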

How the data were processed

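RNA of peeled urothelium was sequenced in 12 libraries from its 3′ ends (QuantSeq, forward, sense strand; 400 ng total RNA), per the labels' protocols. The authors deposited raw read counts per gene symbol, 1 table for each time. Bowtie, TopHat, HTSeq, DESeq2 and mm10 are named in the submitters' processing notes, without versions. Genotype and time in the labels set the groups. Replicate numbers follow accession order and pair nothing. WT replicate 3 at 1 month has different identifying numbers in its title and library name, and was matched by the library name. Titles give each library a number of its own, but the labels do not say that these are separate mice. If they are not, the spread between samples that the p-values measure may be technical.

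Counts as deposited were tested with edgeR 4.0.16 (R 4.3.3): quasi-likelihood test, robust dispersions, TMM scaling within the libraries fitted, the default filter on low counts, two-sided, Benjamini-Hochberg adjustment over all genes tested, threshold 0.05. The 6 libraries of a time were fitted together, those of 1 month with a batch term, and the interaction used all 12 with batch. Every adjusted p is from this test unless DESeq2 (1.42.0) is named. Printed CPM were scaled by TMM over all 12 libraries, log2 CPM used a prior count of 2, and an SE is the absolute log2 fold change over the square root of F. The 12 pairs of libraries within groups all differed beyond sampling noise (chi-square per degree of freedom at least 8.59).

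The members and the lists were chosen with earlier results of these data known. All 10 members are named. From each list the called genes with the smallest adjusted p (at most 3), or where none was called the 2 with the smallest p, could be named, and 5 genes by likeness. Other genes named are Stag2, Xist, Dbp, Upk3a, Hspa1a and markers. The test was tried on simulated counts with 200 genes changed 4-fold: edgeR recovered 2.5% at 1 week, 91.5% at 1 month and 0.5% of interactions, and DESeq2 59.5%, 89% and 31%. Of all genes tested, edgeR made 0 false calls at 1 week and 13 at 1 month, and DESeq2 31 and 16. Alternatives were other scalings, filters and tools, and leaving out libraries. The level of 3 counts, the upper limit that a count of 0 allows, covers counting error only.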

Additional observations from a re-analysis of the deposited data

How the results depend on the processing

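At 1 week, the count of all genes called (8) was 62 with no filter on low counts and 957 with DESeq2, and 0 to 320 with 1 library left out. Members called were 3 with DESeq2 and 0 otherwise, and pathway genes 7 with DESeq2 and 0 to 2 with 1 library left out. The sign of Ier2 changed with library size scaling (-0.064) and with no filter (-0.0085), and with 1 library left out it ran from -0.81 (without KO replicate 3) to 0.34.

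At 1 month, all genes called (269) were 561 with library size scaling, 1276 with no filter, 781 with DESeq2, 0 with no batch covariate, 1474 in batch 2 alone and 45 to 1522 with 1 library left out. Members called were 2 with no filter (Egr1 and Dusp1), 1 with DESeq2, 1 with no robust option, 1 with TMM factors from all 12 libraries, 2 in batch 2 alone and 0 to 2 with 1 library left out. Pathway genes called were 2, 12, 7, 0 and 14 with library size scaling, no filter, DESeq2, no batch covariate and batch 2 alone, and 0 to 14 with 1 library left out. Scaling by library size moved the median of all genes to 0.22, with 456 called higher and 105 lower (121 and 148 with TMM), and turned Jun to 0.059 and Ier3 to 0.11. Jun was 0.011 in batch 2 alone. With 1 library left out, signs changed within the ranges of Jun (-0.62 to 0.14), Ier3 (-0.29 to 0.094), Fos (-0.54 to 0.72), Ier2 (-0.036 to 0.50) and Zfp36 (-0.20 to 0.79).

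For the interaction, all genes called (0) were 137 with no filter, 917 with DESeq2 and 0 to 440 with 1 library left out, and pathway genes 4 with DESeq2 and 0 to 4. With 1 library left out, Ier2 ran from -0.052 to 1.07 and Fos from -2.07 to 0.18. The cause of these shifts was not tested. No paired analysis was possible because the labels carry no replicate numbers. Depth limits Fosb and Atf3 at 1 month, where no library had more than 18 reads of either.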
